A study of Mus musculus with 12 samples.

Results

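The let-7 family was followed through small RNA counts of extracellular vesicles shed by mesenchymal stem cells that were cultured from mouse bone marrow, the stromal progenitors of bone, cartilage and fat. Its members were the 10 mature guide strands listed by name, mmu-let-7a-5p to mmu-let-7g-5p, mmu-let-7i-5p, mmu-let-7j and mmu-miR-98-5p, of 1978 annotated miRNA rows in a table of 3509 rows. The study exposed the cells to antigens of the hydatid parasite, and the design text names 3 preparations, ESPs, HCF and pLL, each at 2 µg/ml for 48 h, before vesicles were collected by ultracentrifugation. All 12 libraries came from C57BL/6 mice of specific-pathogen-free grade, and every library carries the same label of antigen treatment.

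The libraries fall by title into 4 groups named PLL, NY, aFM and DZ, with replicates A, B and C in each. The group PLL bears the name of the pLL preparation. The sources used here do not say what NY, aFM and DZ stand for, which of them received ESPs or HCF, or whether any group was left unstimulated. DZ served below as the common group that the other 3 were set against, and it is not named as a control. The labels do not state whether the replicates were separate cultures or animals. The p-values therefore reflect the spread among these libraries alone, and that spread may be technical.

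The let-7 miRNAs are short guide RNAs that lead Argonaute proteins to messenger RNAs, mostly through the seed, the bases just after the first one. The family is one of the most conserved in animals. It was first described in the worm Caenorhabditis elegans as a timer of late development, and in mammals it accumulates as cells differentiate. In mouse and human, the RNA-binding proteins LIN28A and LIN28B block its maturation, and its known targets include HMGA2, MYC and RAS messages. Human mesenchymal stem cells were reported to form bone more readily when let-7 was raised and HMGA2 lowered. Vesicles released by many cell types carry let-7 guide strands among their more abundant miRNAs.

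The mature sequences are shown because the 2 members with called changes, let-7b-5p and let-7c-5p, differ from the others by 1 or a few bases. They are from RefSeq on GRCm38.p6, written 5′ to 3′, with the seed (bases 2 to 8) in capitals.
let-7b-5p: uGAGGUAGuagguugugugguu
let-7c-5p: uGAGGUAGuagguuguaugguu
let-7a-5p: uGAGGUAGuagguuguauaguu
let-7f-5p: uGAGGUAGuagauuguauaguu
let-7e-5p: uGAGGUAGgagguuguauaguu
let-7d-5p: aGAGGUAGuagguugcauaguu
miR-98-5p: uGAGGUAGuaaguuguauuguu
let-7g-5p: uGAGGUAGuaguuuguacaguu
let-7i-5p: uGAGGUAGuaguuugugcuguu
let-7j: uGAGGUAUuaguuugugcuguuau

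Positions were counted from 1 at the 5′ end, with the base of the member compared against first. Against let-7a-5p, let-7c-5p carried A19G alone, let-7b-5p carried A17G and A19G, let-7f-5p carried G12A and let-7e-5p carried U9G. The other changes from let-7a-5p were U1A and U16C in let-7d-5p, G11A and A19U in miR-98-5p, and G12U and U18C in let-7g-5p. let-7i-5p differed from let-7g-5p by A17G and A19U. let-7j had G8U against let-7i-5p and 2 further bases at its 3′ end, which gives it the seed GAGGUAU in place of GAGGUAG. Of the 10, let-7b-5p and let-7c-5p carried A19G. Neighbours 1 base apart (let-7a-5p with let-7c-5p, let-7e-5p or let-7f-5p, let-7b-5p with let-7c-5p, and let-7i-5p with let-7j) could exchange reads under a lenient count, so the split between them is uncertain. The counting rule is not given in the sources used here, and 0 pairs of members held identical rows.

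Members sharing GAGGUAG held 97.9% to 99.6% of the counts of these seeds in a library, and let-7j with GAGGUAU held 0.448% to 2.08%. The table lists other miRNAs with either seed. mmu-let-7k had 7 counts in 4 libraries, and miR-1961 and miR-202-3p had 0.

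The hairpins lie in clusters, and some neighbours in sequence, let-7b with let-7c and let-7a with let-7f, are neighbours in the genome as well. Mirlet7b (chr15:85707319-85707403, + strand) and Mirlet7c-2 (chr15:85706603-85706697, + strand) are 621 bases apart and overlap exons of the long non-coding gene Lncppara. Another source of let-7c-5p, Mirlet7c-1 (chr16:77599657-77599750, + strand), lies in an intron of Mir99ahg, 656 bases from Mir99a. Mirlet7a-1 (chr13:48538179-48538272), Mirlet7f-1 (chr13:48537829-48537917) and Mirlet7d (chr13:48536012-48536114) lie together on the − strand in exons of the long intergenic non-coding RNA 6720427I07Rik. The other let-7a hairpin, Mirlet7a-2 (chr9:41536716-41536811, + strand), is intronic in 3110039I08Rik and 5211 bases from Mir100. Mirlet7f-2 (chrX:151912346-151912428) and Mir98 (chrX:151913214-151913321) sit 785 bases apart on the + strand in introns of Huwe1. Mirlet7e (chr17:17830352-17830444, + strand), in an intron of Spaca6, is 94 bases from Mir99b and 367 from Mir125a. Mirlet7g (chr9:106178840-106178927, + strand) is intronic in Wdr82, Mirlet7i (chr10:122985640-122985724, − strand) overlaps an exon of the pseudogene D630033A02Rik, and Mir7j (chr3:140028249-140028370, + strand) lies in no annotated gene. A mature miRNA made from more than 1 hairpin, as let-7a-5p, let-7c-5p and let-7f-5p are, cannot be assigned to a locus from these counts.

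The libraries held 68647 to 214303 counts, of which 17607 to 60436 were annotated and 3720 to 10306 were let-7 guide strands. The remaining counts, 39.3% to 89.7% of a library, were on predicted loci that name no gene, and they were kept out of library sizes and tests. PLL replicate A stands apart: a chi-square statistic of its annotated counts was 12715 against PLL replicate B and 10942 against replicate C, while replicates B and C gave 839.5 between them. The changes of let-7g-5p, miR-99a-5p and miR-100-5p in PLL, where it was far above the rest, are given without it as well. For let-7j, miR-199a-3p and miR-199a-5p, where it was also far above, values are given by PLL library instead. Annotated miRNAs made up 60.7%, 29.2% and 41.7% of counts in PLL replicates A, B and C, 21.7%, 30.6% and 18.6% in NY, 10.7%, 15.5% and 19.9% in aFM and 10.3%, 20.5% and 21.6% in DZ.

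All 10 members were detected in every library and all 10 passed the filter on low counts, among 132 annotated miRNAs tested. The family's weight lay in 5 of them. let-7c-5p averaged 5.46% of annotated counts over the 12 libraries and ranked 4 among annotated miRNAs, let-7i-5p averaged 5.10% (rank 7), let-7b-5p 3.95% (rank 9), let-7a-5p 2.96% (rank 11) and let-7f-5p 2.86% (rank 12). Together these 5 held 85.3% to 94.1% of let-7 counts in a library. let-7g-5p averaged 0.746%, let-7d-5p 0.546%, let-7e-5p 0.301% and let-7j 0.172%. The rarest was miR-98-5p at 0.0563% (rank 93), with 1 to 44 counts in a library, near the 3 counts that a count of 0 allows.

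As a share of annotated counts the whole family was smallest in PLL. It took 17.1%, 19.8% and 19.7% in PLL replicates A, B and C, 22.9%, 22.6% and 25.3% in NY, 22.9%, 22.9% and 25.2% in aFM and 20.3%, 23.3% and 23.9% in DZ. The means were 18.9% ± 1.57 in PLL, 23.6% ± 1.45 in NY, 23.6% ± 1.32 in aFM and 22.5% ± 1.91 in DZ (SD, n = 3 each). On this share all 3 PLL libraries lay below all 9 others, and NY, aFM and DZ overlapped one another. After TMM scaling PLL was not lowest throughout: the summed let-7 level was 233375, 176264 and 179282 CPM in PLL replicates A, B and C, 228496 to 246769 CPM in NY, 221016 to 225092 CPM in aFM and 224202 to 233348 CPM in DZ. Replicate A of PLL then lay above all aFM libraries and the other 2 below every library of the other groups. As a share of all counts, predicted loci included, the order turned round: the family took 8.12% ± 2.28 in PLL, 5.54% ± 1.22 in NY, 3.66% ± 1.29 in aFM and 4.01% ± 1.67 in DZ. On that scale PLL replicate A was highest at 10.4%, and PLL replicate B, at 5.80%, lay within the 4.71% to 6.94% of NY. These shares are descriptions with no test. In vesicle RNA as in any bulk sample, fewer vesicles or cells of a kind and less let-7 RNA in each cannot be told apart.

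**Figure D1:**
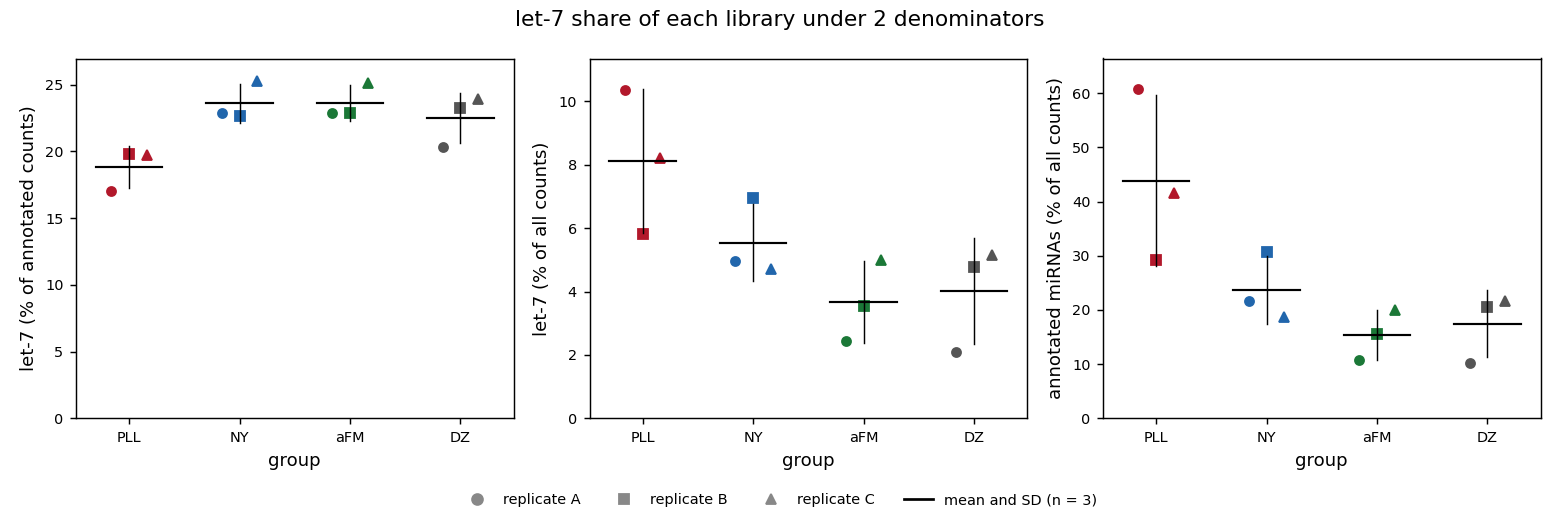
let-7 guide strands as a percentage of annotated counts (left) and of all counts (middle), and annotated miRNAs as a percentage of all counts (right), for the 3 libraries of each group; shapes mark replicates, horizontal lines means and vertical lines SD. PLL is lowest on the left, at 17.1% to 19.8%, and highest on average in the middle, at 8.12%, where its spread is widest.

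let-7b-5p and let-7c-5p were lower in PLL than elsewhere relative to annotated miRNAs, though not once predicted loci entered the library sizes. Levels below are CPM, each count relative to its library's annotated counts, with library sizes scaled by the trimmed mean of M values (TMM). let-7b-5p had 26268, 23559 and 24594 CPM in PLL replicates A, B and C, 50188, 52755 and 51581 CPM in NY, 38460, 38604 and 44269 CPM in aFM and 44874, 38408 and 37815 CPM in DZ. It was lowest in all 3 PLL libraries, highest in all 3 NY libraries, and overlapped between aFM and DZ. let-7c-5p had 35167, 38201 and 39992 CPM in PLL, 62187, 70940 and 65515 CPM in NY, 48454, 50921 and 50736 CPM in aFM and 65848, 61566 and 61763 CPM in DZ. Its PLL libraries were again the 3 lowest, its aFM libraries the next 3, and NY and DZ overlapped. Groups without overlap were common. In PLL against DZ, aFM and NY, 3, 3 and 5 of the 10 members had none, beside 21.2%, 38.6% and 31.8% of all 132. In NY against DZ, aFM against DZ and NY against aFM it was 1, 3 and 4 members, beside 15.9%, 34.1% and 43.9%.

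In PLL against DZ, both members fell on annotated counts. Adjusted p-values are from edgeR's quasi-likelihood test with Benjamini-Hochberg adjustment over the 132 miRNAs, at a threshold of 0.05. let-7b-5p averaged 24807 ± 1367 CPM in PLL and 40366 ± 3916 CPM in DZ (SD, n = 3 each), a log2 fold change of -0.70 ± 0.15 (SE, adjusted p = 0.0182). let-7c-5p averaged 37787 ± 2439 CPM in PLL and 63059 ± 2417 CPM in DZ, a log2 fold change of -0.74 ± 0.14 (adjusted p = 0.00734). These 2 lower members of 10 stand against 3.79% of tested miRNAs called in either direction and 3.03% called lower. No member passed as higher, and the median log2 change of the 10 members was 0.0098, beside 0.22 over all 132. Both calls passed whichever of the 12 libraries was left out, but neither passed with annotated totals in place of TMM, without the filter on low counts, with PLL and DZ fitted alone, or with the let-7 total as library size.

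In PLL against aFM, let-7b-5p alone passed. It averaged 24807 ± 1367 CPM in PLL and 40444 ± 3313 CPM in aFM, a log2 change of -0.71 ± 0.15 (SE, adjusted p = 0.0141). let-7c-5p had a log2 change of -0.41 ± 0.14 (adjusted p = 0.0824), and without PLL replicate A its adjusted p was 0.048. Of all tested miRNAs 9.09% were called in this comparison, and 3.03% were called lower. The median change was -0.095 over the members and 0.31 over all tested. The call of let-7b-5p was lost without aFM replicate C (adjusted p = 0.0691), with upper quartile factors (0.0548), without the filter (0.111), with the 2 groups alone (0.0657) and with the let-7 total as library size (0.0738). It was also lost with predicted loci in the library sizes (0.102).

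The widest gap was between PLL and NY. let-7b-5p fell to 24807 ± 1367 CPM in PLL, against 51508 ± 1285 CPM in NY, a log2 change of -1.05 ± 0.15 (adjusted p = 0.00101). let-7c-5p fell to 37787 ± 2439 CPM in PLL, against 66214 ± 4418 CPM in NY, a log2 change of -0.81 ± 0.14 (adjusted p = 0.00197). This call of let-7c-5p was lost with upper quartile factors (adjusted p = 0.0685), without the filter (0.0917) and with the let-7 total as library size (0.0777), while that of let-7b-5p passed under all 3. With predicted loci in the library sizes both calls were lost. In PLL against NY 6.82% of tested miRNAs were called and 3.79% were called lower. The median change was 0.24 over the members and 0.17 over all tested. A joint test of any difference among the 4 groups called the same 2 members, let-7b-5p (adjusted p = 0.00293) and let-7c-5p (adjusted p = 0.00518), where 12.1% of all tested miRNAs were called.

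The direction of these changes is relative to the other annotated miRNAs and turned round when predicted loci entered the library sizes. On that scale the log2 change of let-7b-5p in PLL was 0.79 against DZ, 1.15 against aFM and 0.24 against NY, and that of let-7c-5p was 0.68, 1.43 and 0.44 in the same order. The median over the 141 annotated miRNAs tested there was 1.73 in PLL against DZ, 2.13 against aFM and 1.49 against NY. Both members therefore lay below the annotated median in all 3 comparisons, as they did on annotated counts.

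**Figure D2:**
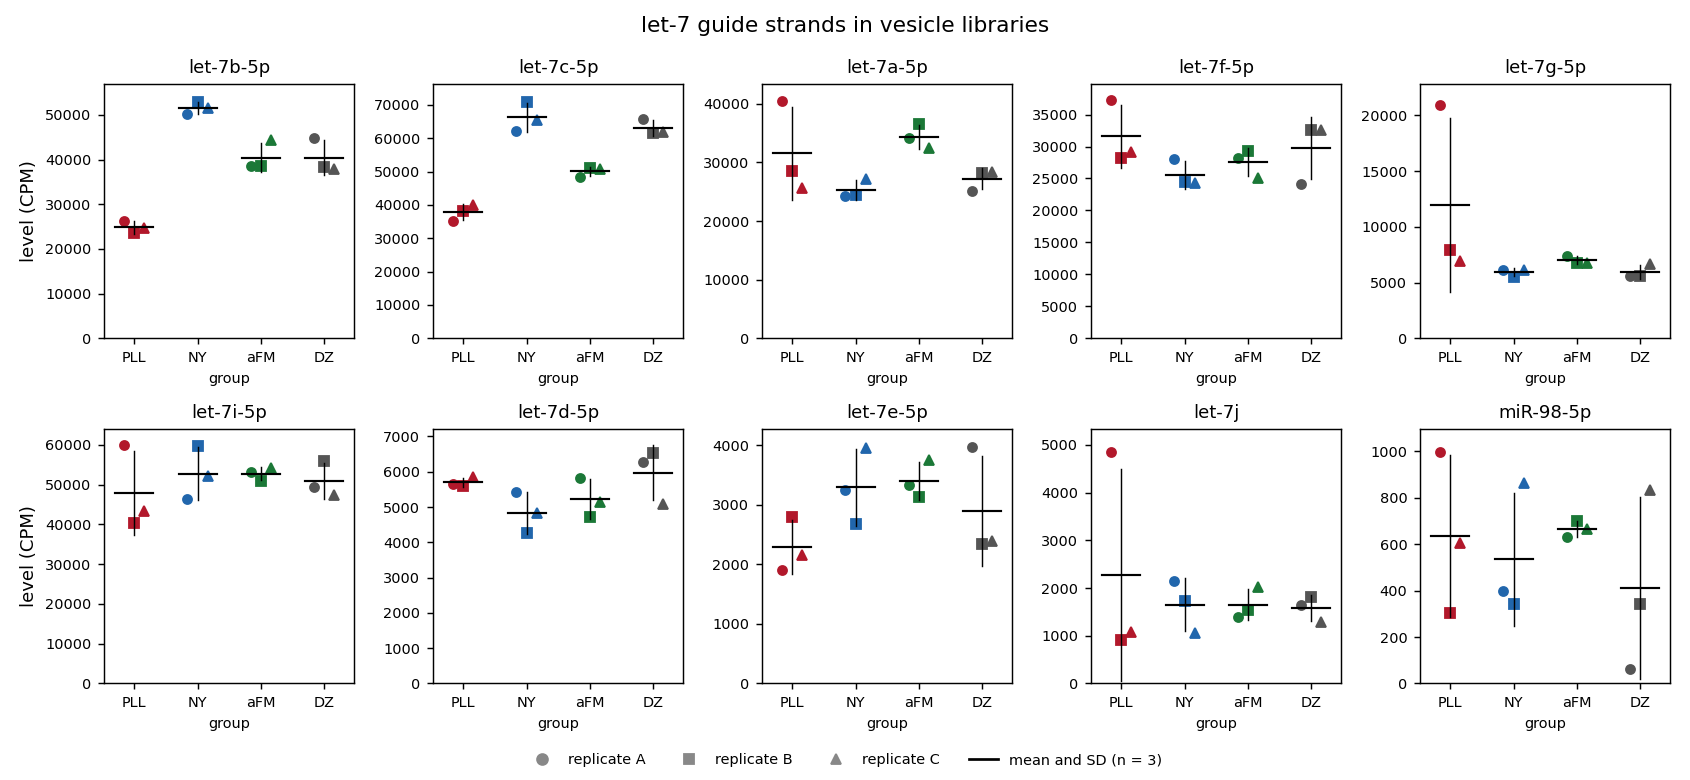
CPM on annotated, TMM-scaled counts (each panel with its own axis from 0) of the 10 let-7 guide strands in the 3 libraries of each group; shapes mark replicates, horizontal lines means and vertical lines SD. On this scale let-7b-5p and let-7c-5p are lowest in all 3 PLL libraries (with predicted loci in the library sizes their changes in PLL were above 0), while the high PLL means of let-7g-5p and let-7j come from replicate A.

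The other 8 members did not pass in any of the 6 pairwise comparisons. let-7a-5p, the form that has the same sequence in worms and mammals, had 40511, 28456 and 25580 CPM in PLL, which averaged 31516 ± 7922. It had 24232, 24484 and 27204 CPM in NY, 34074, 36582 and 32454 CPM in aFM and 25120 to 28380 CPM in DZ. aFM lay above NY and DZ throughout, and PLL overlapped all 3. The log2 change of let-7a-5p was -0.44 ± 0.19 in NY against aFM (adjusted p = 0.159), and -0.52 (adjusted p = 0.0186) without PLL replicate A, a library of neither group that shares the fit.

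let-7f-5p, made beside let-7a on chromosome 13 and beside miR-98 on the X chromosome, averaged 31569 ± 4941 CPM in PLL, 25603 ± 2172 in NY, 27564 ± 2173 in aFM and 29766 ± 4868 in DZ. PLL libraries, at 28281 to 37250 CPM, were all above NY at 24277 to 28110.3 CPM, and the log2 change was 0.30 ± 0.19 (adjusted p = 0.327). let-7i-5p overlapped between all groups. Its means were 47812 ± 10555 CPM in PLL, 52700 ± 6656 in NY, 52766 ± 1629 in aFM and 50887 ± 4475 in DZ, and its log2 changes in PLL were -0.09 ± 0.18 against DZ, -0.14 ± 0.18 against aFM and -0.14 ± 0.18 against NY.

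let-7g-5p had the largest positive change of any member, and the size of that change rests on 1 library. It had 20924, 7912 and 6936 CPM in PLL, 6166, 5524 and 6119 CPM in NY, 7422, 6765 and 6799 CPM in aFM and 5548, 5576 and 6707 CPM in DZ. PLL replicate A was far above the other 11 libraries, while PLL replicates B and C were above every NY and DZ library by a small margin. The log2 change in PLL was 1.00 ± 0.36 against DZ (adjusted p = 0.105), 0.77 ± 0.36 against aFM (adjusted p = 0.156) and 1.01 ± 0.36 against NY (adjusted p = 0.118). Without PLL replicate A it was 0.27 against DZ, 0.019 against aFM and 0.33 against NY.

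The less abundant members spread widely within groups. let-7j had 4846 CPM in PLL replicate A against 904 and 1082 CPM in replicates B and C, and 1064 to 2155 CPM in NY, 1392 to 2025 CPM in aFM and 1288 to 1821 CPM in DZ. The ratio of let-7j to its near-copy let-7i-5p was 0.0809 in PLL replicate A and 0.0204 to 0.0465 in the other 11 libraries. let-7d-5p was within 4251 to 6544 CPM in all libraries and averaged 5698 ± 137 CPM in PLL, 4837 ± 593 in NY, 5221 ± 561 in aFM and 5967 ± 782 in DZ. let-7e-5p averaged 2285 ± 455 CPM in PLL, 3292 ± 645 in NY, 3401 ± 317 in aFM and 2894 ± 926 in DZ. All 3 PLL libraries of let-7e-5p were below all 3 aFM libraries, where 38.6% of all tested miRNAs had no overlap between these groups. Its log2 change was -0.57 ± 0.28 (adjusted p = 0.179). miR-98-5p averaged 634 ± 348 CPM in PLL, 535 ± 287 in NY, 665 ± 33.0 in aFM and 412 ± 391 in DZ, and at this depth no difference between groups was detectable for it.

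The make-up of the family can be read without any scaling between libraries, as each member's percentage of a library's let-7 counts. let-7b-5p and let-7c-5p together held 26.3%, 35.0% and 36.0% of the family in PLL replicates A, B and C, 49.2%, 50.1% and 49.3% in NY, 39.3%, 40.1% and 42.2% in aFM and 48.8%, 42.8% and 44.4% in DZ. The PLL libraries were lowest, aFM came next, and NY lay above DZ, with no overlap between any groups. let-7a-5p and let-7f-5p together held 33.3%, 32.2% and 30.5% in PLL, 22.9%, 19.8% and 21.7% in NY, 28.2%, 29.5% and 25.6% in aFM and 21.7%, 26.1% and 27.2% in DZ. Here PLL was highest and aFM and DZ overlapped. let-7i-5p held 20.3% to 25.7% in every library.

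The ratio of let-7b-5p to let-7a-5p, which differ at positions 17 and 19, was below 1 in PLL and above it elsewhere. It was 0.648, 0.828 and 0.961 in PLL, 2.07, 2.15 and 1.90 in NY, 1.13, 1.06 and 1.36 in aFM and 1.79, 1.36 and 1.33 in DZ. let-7a-5p exceeded let-7b-5p in the 3 PLL libraries and in none of the other 9, and aFM and DZ overlapped. By contrast the ratio of let-7b-5p to let-7c-5p stayed between 0.612 and 0.873. It averaged 0.660 ± 0.0757 in PLL, 0.779 ± 0.0324 in NY, 0.808 ± 0.0586 in aFM and 0.639 ± 0.0371 in DZ. Over the 12 libraries the log2 CPM of let-7b-5p and let-7c-5p had a Pearson correlation of 0.90, as a description of libraries that share group and depth. let-7b-5p had correlations of -0.36 with let-7a-5p, -0.60 with let-7f-5p and -0.59 with let-7g-5p on the same scale.

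**Figure D3:**
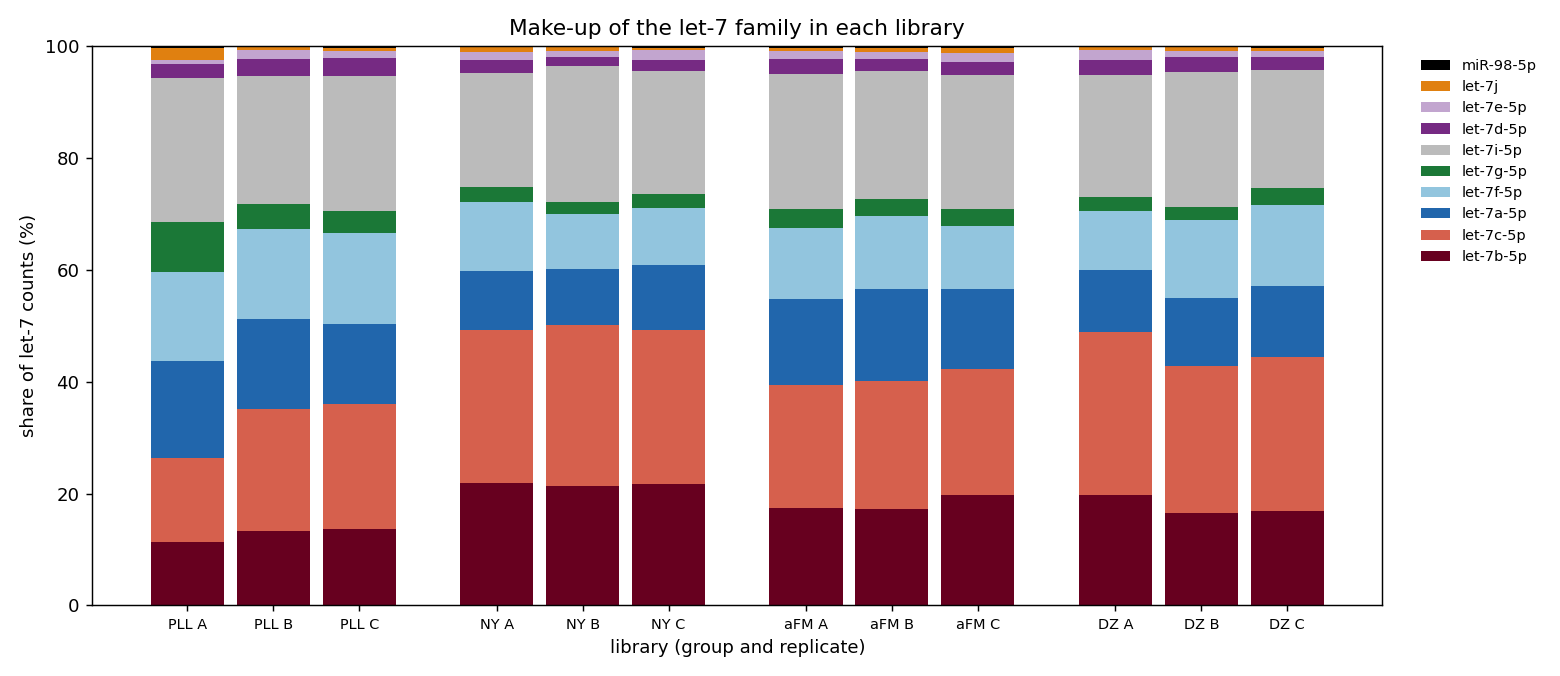
Each library's let-7 counts divided among the 10 guide strands, in percent; bars are single libraries, grouped as PLL, NY, aFM and DZ. let-7b-5p and let-7c-5p fill 26.3% to 36.0% of the PLL bars and 49.2% to 50.1% of the NY bars, and let-7g-5p reaches 8.97% in PLL replicate A.

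Members were also tested with the summed let-7 counts as library size, so that a change is relative to the family. In PLL against NY, let-7b-5p fell within the family (log2 change -0.76 ± 0.17, adjusted p = 0.0181), while let-7g-5p rose (1.21 ± 0.31, adjusted p = 0.0353) and let-7a-5p rose (0.58 ± 0.17, adjusted p = 0.0437). These 3 of 10 stand against 12.6% of 135 miRNAs called on that scale. let-7f-5p had 0.57 ± 0.19 (adjusted p = 0.0629) and let-7c-5p -0.50 ± 0.18 (adjusted p = 0.0777). In PLL against DZ, let-7g-5p alone passed, with a log2 change of 1.15 ± 0.31 (adjusted p = 0.0348), where 9.63% of all were called. let-7b-5p had -0.47 ± 0.17 and let-7c-5p -0.49 ± 0.18 there (adjusted p = 0.0863 each). In PLL against aFM 11.1% of all tested miRNAs and 0 of 10 members passed, and 2 members, let-7b-5p and let-7g-5p, had an unadjusted p under 0.05 (adjusted p = 0.0738 each). The sum contains the members, so the rise of some and the fall of others are not independent, and the median of all tested miRNAs moved to 0.41 in PLL against DZ, 0.53 against aFM and 0.49 against NY.

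Without PLL replicate A, an alternative chosen after the data were seen, the same scale gave 4 calls in PLL against NY, where 11.0% of 145 miRNAs were called. let-7b-5p had a log2 change of -0.68 (adjusted p = 0.0105), let-7g-5p 0.74 (adjusted p = 0.0369), let-7a-5p 0.51 (adjusted p = 0.0369) and let-7f-5p 0.58 (adjusted p = 0.0485). In PLL against DZ, let-7g-5p had 0.68 (adjusted p = 0.0566), 0 of 10 members passed and 6.90% of all did. In PLL against aFM, let-7b-5p passed at -0.42 (adjusted p = 0.0451), where 15.2% of all were called.

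**Figure D4:**
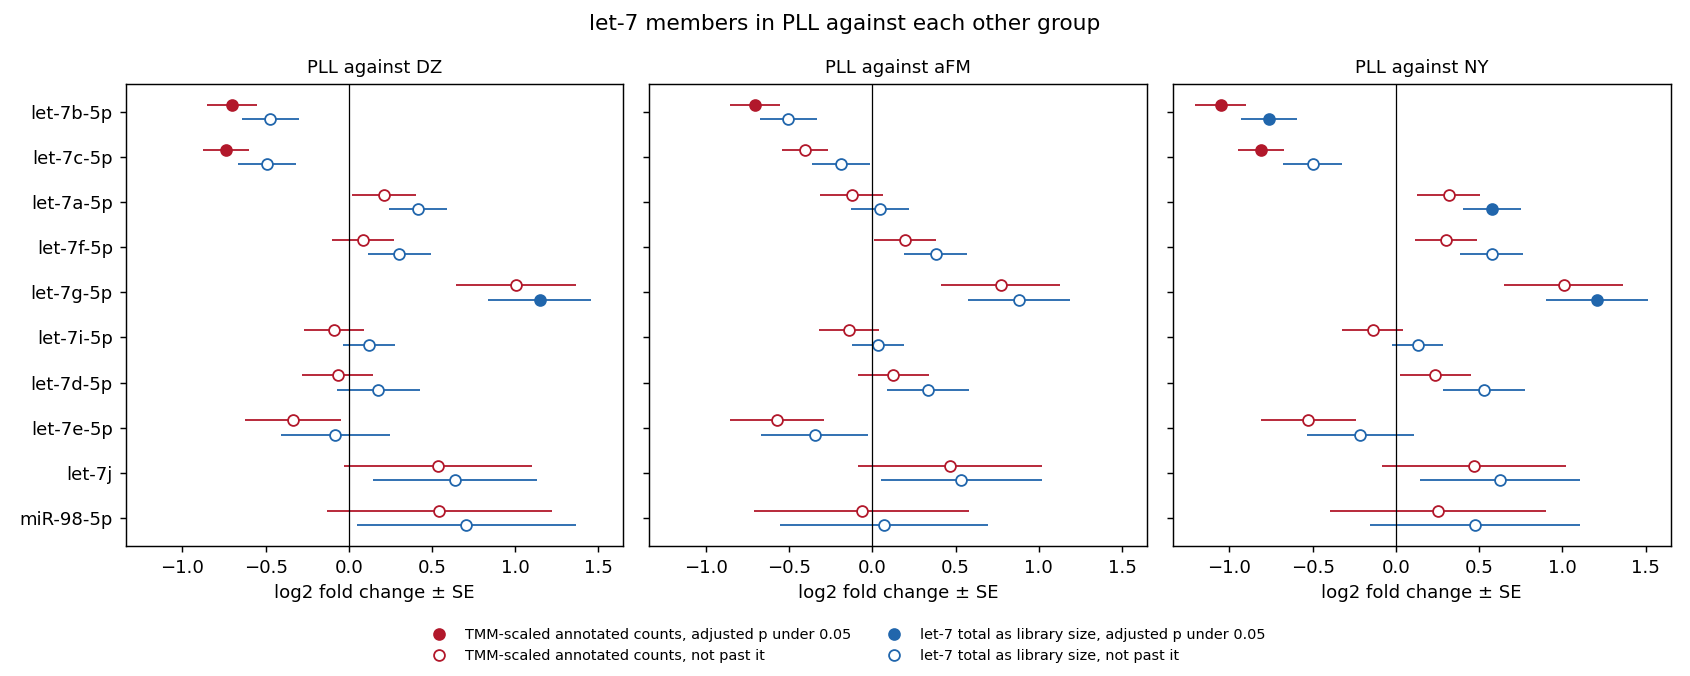
log2 fold changes ± SE of the 10 members in PLL against DZ, aFM and NY, from edgeR's quasi-likelihood test on TMM-scaled annotated counts (red) and with the let-7 total as library size (blue); filled points have an adjusted p under 0.05. let-7b-5p is below 0 in all 3 panels under both scalings and let-7g-5p is above 0 in all 3, with wider error bars than the 5 abundant members. With predicted loci in the library sizes, which is not drawn, the changes of let-7b-5p were 0.24 to 1.15.

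Among NY, aFM and DZ no member was called on TMM-scaled annotated counts, which with 3 libraries a group does not show equal levels. In NY against DZ, where 0.758% of tested miRNAs were called, 0 of 10 members passed edgeR's test, and 1 member, let-7b-5p, had an unadjusted p under 0.05. It averaged 51508 ± 1285 CPM in NY and 40366 ± 3916 CPM in DZ (log2 change 0.35 ± 0.15, adjusted p = 0.286), with all NY libraries above all DZ libraries. In aFM against DZ 18.9% of tested miRNAs were called and again 0 of 10 members. 1 member, let-7c-5p, had an unadjusted p under 0.05: it averaged 50037 ± 1374 CPM in aFM and 63059 ± 2417 CPM in DZ (log2 change -0.33 ± 0.14, adjusted p = 0.115). In NY against aFM 3.79% of tested miRNAs and 0 of 10 members were called, and 3 members had an unadjusted p under 0.05. These were let-7c-5p (log2 change 0.40 ± 0.14, adjusted p = 0.088), let-7b-5p (0.35 ± 0.15, adjusted p = 0.159) and let-7a-5p, given above. The members' median changes were 0.058 in NY against DZ, 0.062 in aFM against DZ and -0.077 in NY against aFM, beside 0.022, -0.14 and 0.18 over all tested. DESeq2 also called 0 members in each of these 3 comparisons. It called 4.55% of all tested miRNAs in NY against DZ, 21.2% in aFM against DZ and 11.4% in NY against aFM. Over all 6 comparisons, 13 of the 60 pairwise changes of members had an unadjusted p under 0.05. The same count was not made for all tested miRNAs, so it shows no excess for the family.

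The opposite arms of the hairpins, which are usually degraded once the guide is loaded, were rare. Guide strands held 99.2% of the counts on both arms, 77445 against 622 when 2 identical rows were counted once. Of 12 other arms listed, 9 were detected, 3 had a count in every library, and let-7a-2-3p, let-7g-3p and let-7i-3p had 0 counts. let-7a-1-3p and let-7c-2-3p share the sequence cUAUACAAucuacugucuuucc and had the same 215 counts, so they are 1 measurement with 2 names. It had 702, 678 and 859 CPM in PLL, 696, 465 and 732 CPM in NY, 548, 588 and 212 CPM in aFM and 610, 569 and 606 CPM in DZ, without a clear order.

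let-7d-3p was the most abundant opposite arm, with 371 counts in all. It had 747, 1005 and 1145 CPM in PLL, 1193, 2048 and 1397 CPM in NY, 801, 588 and 876 CPM in aFM and 1097, 398 and 1099 CPM in DZ. NY was above all other libraries. The guide strand let-7d-5p exceeded it 7.55, 5.58 and 5.11 times in PLL, 4.56, 2.08 and 3.45 times in NY, 7.26, 8.00 and 5.86 times in aFM and 5.72, 16.4 and 4.62 times in DZ. The 3 rows tested, among them the identical pair, gave 0 calls in the 6 comparisons by edgeR and 0 by DESeq2, and 1 of 18 tests had an unadjusted p under 0.05.

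The miR-99, miR-100 and miR-125 genes lie in shared clusters with let-7 hairpins, and their products often derive from the same primary transcripts. Of 11 such strands listed, 10 were detected, 7 were tested and 0 were called in any of the 6 comparisons by edgeR. There 8 of 42 tests had an unadjusted p under 0.05, a count not made for all tested miRNAs. DESeq2 made 2 calls, 1 in PLL against DZ and 1 in PLL against NY, where it called 14.4% and 9.85% of all tested miRNAs. In PLL against DZ, miR-99a-5p had a log2 change of 1.59 ± 0.56 (adjusted p = 0.0996), and 0.13 without PLL replicate A. It had 94994, 16250.0 and 15335 CPM in PLL replicates A, B and C, 16939, 16913 and 18258 CPM in NY, 32977, 30295 and 24809 CPM in aFM and 15852, 13485 and 12731 CPM in DZ. let-7c-5p, which has a hairpin beside Mir99a and another on chromosome 15, was lowest in the same PLL libraries. miR-100-5p, beside Mirlet7a-2, had 38224, 6907 and 8018 CPM in PLL, 10086 to 12338 CPM in NY, 7192 to 10163 CPM in aFM and 8033 to 8536 CPM in DZ. Replicate A of PLL was the highest library for both miRNAs. Without it, miR-100-5p had a log2 change of -0.20 in PLL against DZ, beside 1.09 with it. In PLL against aFM, miR-99a-5p had 0.52 with it and fell without it (-0.96, adjusted p = 0.00297).

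miR-99b-5p, whose gene is next to Mirlet7e, was low in all 3 PLL libraries, replicate A included. It had 4778, 4998 and 5568 CPM in PLL, 9050, 8627 and 7982 CPM in NY, 7506, 5993 and 6618 CPM in aFM and 9389, 5861 and 7995 CPM in DZ. The PLL libraries were the 3 lowest, with a log2 change of -0.74 ± 0.23 against NY (adjusted p = 0.0773). Without PLL replicate A, miR-100-5p was lower as well (-0.20 against DZ, -0.26 against aFM and -0.60 against NY). miR-99a-5p then had 0.13, -0.96 and -0.13 in the same order. The median change over the 7 tested strands was 0.51 in PLL against DZ, 0.51 against aFM and 0.014 against NY, beside 0.22, 0.31 and 0.17 over all tested. These medians include PLL replicate A, the highest library for miR-99a-5p, miR-100-5p and miR-125b-5p.

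The miRNAs most like let-7b-5p in log2 CPM over the 12 libraries were miR-143-3p (Pearson 0.87, Spearman 0.71), miR-99b-5p (0.85 and 0.78), miR-615-3p (0.82 and 0.80), miR-125b-1-3p (0.76 and 0.82) and miR-676-3p (0.73 and 0.50). All 5 had negative log2 changes in PLL against DZ, aFM and NY. They were picked for likeness to let-7b-5p, which was lowest in the PLL libraries, so this direction follows largely from the choice. The miRNAs most like the family total were miR-574-5p (0.69 and 0.71), miR-676-3p (0.68 and 0.36), miR-143-3p (0.55 and 0.40), miR-615-3p (0.54 and 0.43) and miR-99b-5p (0.52 and 0.34). miR-676-3p had 0 to 13 counts in a library and miR-574-5p 10 to 32, so their correlations rest on few counts. All these correlations describe 12 libraries that share groups, and carry no test.

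Markers of mesenchymal cells were abundant as a sum in every library, and another marker moved with the groups. The 6 mesenchymal miRNAs, all detected, summed to 134849 to 142948 CPM in PLL, 198807 to 218096 CPM in NY, 145257 to 154850 CPM in aFM and 180716 to 205410 CPM in DZ. Most of the sum was miR-21a-5p and miR-143-3p, with means of 88551 and 36912 CPM in PLL. miR-145a-5p had 0 to 15 counts in a library and miR-214-3p 4 to 21. The PLL sums were lowest, as for let-7b-5p. Unlike let-7b-5p, the sums of NY and DZ overlapped, and those of aFM lay below DZ. In PLL against DZ, 1 of the 6 was called, and their median log2 change was 0.10 beside 0.22 over all tested. That one, miR-143-3p, a smooth muscle and fibroblast miRNA, fell in PLL (28940 to 44254 CPM, against 74835 to 87066 CPM in DZ, log2 change -1.13 ± 0.17, adjusted p = 0.00202). miR-199a-3p had a change of 1.01, miR-199a-5p 0.95, miR-214-3p 0.47, miR-21a-5p -0.26 and miR-145a-5p -0.76, none past the threshold. PLL replicate A was far above the rest for both miR-199a strands. miR-199a-3p had 19338, 5701 and 4550 CPM in PLL replicates A, B and C and 4244 to 5365 CPM in DZ. miR-199a-5p had 3985, 1381 and 1623 CPM in PLL and 1036 to 1440 CPM in DZ. Of the 2 neural markers, miR-9-5p had 85597 to 123700.0 CPM in PLL, 7127 to 8214 CPM in NY, 29976 to 35663 CPM in aFM and 37.9 to 512 CPM in DZ. miR-124-3p, the defining miRNA of neurons, had 0 to 151 CPM in PLL, 0 to 33.1 CPM in NY, 60.4 to 221 CPM in aFM and 0 in all DZ libraries, where a count of 0 allows 114 to 183 CPM.

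Markers of other sources were lower or overlapped. The 3 erythroid miRNAs summed to 46852 to 67537 CPM in PLL, 63453 to 129591 CPM in NY, 47925 to 81658 CPM in aFM and 61346 to 137122 CPM in DZ. The 4 leukocyte miRNAs summed to 2083 to 3767 CPM in PLL, 2162 to 3414 CPM in NY, 1571 to 2427 CPM in aFM and 3145 to 3719 CPM in DZ. The 2 endothelial miRNAs reached 4623 to 5147 CPM in aFM, above 1698 to 2323 CPM in PLL, 365 to 865 CPM in NY and 493 to 1423 CPM in DZ. The liver miRNA miR-122-5p had 3943 to 7827 CPM in PLL, 2421 to 3060 CPM in NY, 13507 to 15699 CPM in aFM and 1890 to 38119 CPM in DZ, and the 5 epithelial miRNAs summed to 1878 CPM at most. The part of these markers, of the annotated share and of depth in the let-7 changes was not tested.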

How the data were processed

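The deposited table holds raw counts, whole numbers for each row and library, not normalized in any way, judging by the values. Per the submitters' processing notes, FastQC, STAR, StringTie and DESeq2 were used with the mm39 build; no source used here gives the miRNA caller, read filters or counting rule. The extraction protocol in the labels speaks of mRNA libraries, and the series' design of a kit for small RNA.

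Library sizes and tests did not include the 1531 predicted loci. Annotated rows were filtered with filterByExpr (minimum count 10, minimum total 15), leaving 132 miRNAs that held at least 98.0% of a library's annotated counts, scaled by TMM and fitted with edgeR 4.0.16 (limma 3.58.1, R 4.3.3) over all 12 libraries with a group term and no covariate. Tests were two-sided quasi-likelihood tests with Benjamini-Hochberg adjustment over all tested miRNAs, called at 0.05. Each SE is the absolute log2 fold change over the square root of F. CPM used annotated counts and TMM-scaled library sizes, and log2 CPM a prior count of 2. The common biological coefficient of variation was 40.4%. A count of 0 allows 3 counts, or 67.9 to 183 CPM, a limit that covers counting error alone because the reads carry no molecular identifiers. DESeq2 1.42.0, other scalings, filters and designs and each library left out were alternatives. The scripts were tested on simulated counts.

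All 10 members were named, with the other let-7 arms counted in every library, the 3 most abundant miR-99, miR-100 and miR-125 strands, the 5 miRNAs most correlated with let-7b-5p and with the family total, and rows sharing the seed of let-7a-5p; rows with the seed of let-7j and some markers were added after their values were seen. The members and lists were chosen with earlier results of these data known. The 10 members matched RefSeq mature sequences; loci and host genes are from RefSeq and GENCODE M21 on GRCm38.p6, not the submitters' build, and no coordinate was converted.

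Groups share the replicate letters A, B and C. After subtracting group means, libraries with the same letter correlated over 0.1 for all of A, B and C in NY and DZ (0.18, 0.34 and 0.13); in aFM and DZ it was 0.23, 0.062 and 0.17, and in each other pair of groups at least 1 letter was below 0; no label states a shared animal, culture or day. Libraries of 1 group always differed by more than sampling noise (chi-square at least 791), so none was counted as a duplicate.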

Additional observations from a re-analysis of the deposited data

How the results depend on the processing

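The count of members called changed with the processing. In PLL against DZ the 2 calls became 0 with annotated library totals, without the filter on low counts or with the 2 groups fitted alone. With the let-7 total as library size both were lost and 1 other, let-7g-5p higher, was gained. With predicted loci in library sizes both were lost too. There let-7a-5p, let-7d-5p and let-7g-5p were called higher, and 35.3% of all rows tested were called. In PLL against aFM the 1 call became 0 with upper quartile factors, the let-7 total, no filter or the 2 groups alone. It became 2 with DESeq2 (let-7b-5p and let-7c-5p, both lower), where 16.7% of tested miRNAs were called. With predicted loci counted in library sizes it became 7. Those 7 were all higher and did not include let-7b-5p, and 36.5% of all rows tested were called there. Leaving out 1 library gave 0 (without aFM replicate C) to 2 (without PLL replicate A). In PLL against NY the 2 calls became 1 with upper quartile factors or no filter, where let-7c-5p was lost. With predicted loci both were lost. There let-7d-5p and let-7g-5p were called higher, and 25.3% of all rows tested were called. NY against aFM, with 0 calls, had 1 with the 2 groups alone, where 25.0% of tested miRNAs were called. It had 0 to 1 when 1 library was left out. The joint test's 2 calls became 1 with upper quartile factors, library totals or no filter, and 5 with predicted loci. The let-7 total without PLL replicate A, added after seeing the data, gave 0 calls in PLL against DZ, 1 in aFM against DZ, 2 in NY against aFM, 4 in PLL against NY and 4 in the joint test. On that scale 20.0% of all tested miRNAs were called in aFM against DZ and 13.1% in NY against aFM. For the joint test under alternatives the share of all rows called is not given, so its counts of 5 and 4 have no background beside them.

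The replicate block, with the letter as a term, left 1 call in PLL against DZ, where let-7b-5p no longer passed (adjusted p = 0.0661), and changed no other count by over 1.5 times. With predicted loci in the library sizes 7 changes reversed: let-7c-5p to 0.68 and let-7b-5p to 0.79 in PLL against DZ, 1.43 and 1.15 against aFM, 0.44 and 0.24 against NY, and let-7a-5p to 0.14 in NY against aFM. With all counts as denominator the family's share was 8.12% in PLL, 5.54% in NY, 3.66% in aFM and 4.01% in DZ. The cause was not tested. let-7b-5p in PLL against NY passed under 21 of 22 alternatives. Depth limits miR-98-5p most, at 1 to 44 counts a library.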
